A study of Homo sapiens with 6 samples.

Results

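The genes described here are 36 genes for the chaperones, enzymes, degradation factors and sensors of the endoplasmic reticulum (ER) and of the unfolded protein response (UPR). They were listed by gene name, with no threshold on a measured value, though earlier results of these data were known when the list was made, and all 36 were found among the 62252 genes to which the quantified transcripts were assigned. RNA was measured in K562 cells, an established human erythroid leukemia line grown in suspension in RPMI 1640 with fetal bovine serum. Cells were kept overnight with 10 µM 21H7, a cell-permeable iron chelator (the Chelator group, n = 3), or with the same volume of its solvent DMSO (the DMSO group, n = 3). The labels number 3 replicates per group and do not say whether they came from separate cultures, so the p-values measure only the spread between these samples, which may be technical. Polyadenylated RNA was sequenced as paired-end reads. Both groups were the same unmodified line, so the treatment was the only labelled difference, and 1 line, 1 dose and 1 time were measured.

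Secreted and membrane proteins fold in the ER with the help of chaperones, disulfide isomerases and lectins, and proteins that fail to fold are drawn back to the cytosol for ER-associated degradation (ERAD). When unfolded proteins build up, sensors in the ER membrane start the UPR: IRE1 cuts an intron out of XBP1 mRNA so that an active transcription factor is made, ATF6 is cleaved to release another, and PERK phosphorylates eIF2alpha, which slows translation while favoring that of ATF4. XBP1 and ATF6 act on promoters through the ER stress element and its variants. K562 cells are not specialized for secretion, and their levels of these genes were not compared with those of other cells.

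The XBP1 intron is shown because its removal is the step by which IRE1 acts, and because annotated transcripts with and without it can be told apart in these libraries. XBP1 lies on the minus strand of GRCh38 at chr22:28794555-28800597, and the intron is 26 bases within the coding sequence at chr22:28796128-28796153, as the annotation places it. The first line gives the intron in capitals, and the second the sequence across the spliced junction of XBP1-202, with the bases after the junction in capitals.
XBP1 intron: GCAGCACTCAGACTACGTGCACCTCT
XBP1 spliced junction: gggtctgctgagtccGCAGCAGGTGCAGGC
XBP1-201 (1850 bases) keeps the intron and codes for 261 codons, and XBP1-202 (1791 bases) lacks it and codes for 376 codons, since removal shifts the reading frame. Apart from the intron, XBP1-201 starts 28 bases earlier and ends 5 bases later than XBP1-202.

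RefSeq promoter windows on GRCh38.p14, from 250 bases before to 50 bases after the transcription start, were found for 32 of the 36 genes (40 windows). The ER stress element, CCAAT and CCACG with 9 bases between them on either strand, was present for 8 of the 32 (25.0%), namely CALR, CANX, CRELD2, ERO1B, HSP90B1, HSPA5, PDIA6 and XBP1. Over all RefSeq genes it was present for 25 of 27305 (0.0916%). Its second form, ATTGG and CCACG with 1 base between them, was found for HERPUD1, HYOU1 and SDF2L1, against 19 of 27305 genes over all. The UPR element TGACGTGG was found for DNAJC10 and HYOU1 (0.927% of all genes), where in HYOU1 it overlapped a match to the second form, and the ATF4 element TGATGCAA for HERPUD1 (1.08% of all genes). A match describes the letters only. The windows below are from genes whose mRNA was higher, lower or not past the test in the chelated cells, with the letters of the element in capitals. The first 4 hold the ER stress element and the last 2 its second form, and each is printed on the strand on which the element reads as spelled.
HSPA5, chr9:125241385-125241414, minus strand: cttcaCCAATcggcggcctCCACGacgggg
XBP1, chr22:28800597-28800626, minus strand: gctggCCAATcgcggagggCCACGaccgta
HSP90B1, chr12:103930211-103930240, plus strand: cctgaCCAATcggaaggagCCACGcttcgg
CALR, chr19:12938379-12938408, minus strand: caccgaCCAATgatggtcgaCCACGcgtgg
HERPUD1, chr16:56932016-56932045, plus strand: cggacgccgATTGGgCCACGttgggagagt
SDF2L1, chr22:21642105-21642134, minus strand: gagggttttgATTGGtCCACGcttccgagg

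Estimated counts per library (in units of 1e+06) ran from 78.6 to 90.4 in DMSO and from 85.4 to 101 in Chelator. How far effective length falls short of annotated length in transcripts with no counts tracks the fragment length; the median was 252 to 264 bases in DMSO against 200 to 218 bases in Chelator, and so the treatment and the fragment length cannot be told apart. All 10 markers of K562-like cells were at 1 TPM (Salmon's length-corrected abundance, summed to the same total in each library) or more in every library, with a summed level of 12730 to 14000 TPM in DMSO and 19580 to 20710 TPM in Chelator. Its members went both ways: mean TPM was higher in Chelator for the globins and TFRC and lower for GATA1, TAL1, KLF1 and BCR. Of the markers of other cell types, 4 of 5 epithelial genes were at 1 TPM or more in every library and summed to 736 to 839 TPM in DMSO and to 1634 to 1848 TPM in Chelator, carried by the keratins KRT8 and KRT18, while EPCAM went from a mean of 65.4 to 47.9 TPM and CDH1 stayed under 0.2 TPM. Lymphoid markers summed to 11.8 to 17.8 TPM and 42.4 to 44.3 TPM, nearly all of it CD3D and with MS4A1 at 0, and fibroblast markers to 2.77 to 3.41 TPM and 3.47 to 3.95 TPM, with LUM at 0.0264 TPM or less. The part of these shifts in the results below was not tested. Since RNA was pooled from whole cultures, fewer cells that express a gene and less RNA per cell cannot be told apart.

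These genes differed between the groups in both directions, and 7 of the 17 rises in Chelator were in ERAD, the role with the most. All 36 genes entered the test, and 17 were higher, 6 lower and 13 did not pass at an adjusted p under 0.05 (DESeq2's Wald test, Benjamini-Hochberg adjustment over 24542 genes). Of all genes tested, 19.5% were higher and 18.3% lower at that threshold, so the share that rose among the 36 was above the background and the share that fell was near it. These shares were not at like power. Genes entered the test at a total count above 10, while every member but WFS1 averaged at least 100 normalized counts. A gene was called when its log2 fold change also passed 1 in size. DNAJB9 was the 1 member called higher, where the background was 8.18%. By the same measure none was called lower (background 2.6%), and none had a log2 fold change below -1 at an unadjusted p under 0.05 with DESeq2, edgeR or limma-voom. Without adjustment, at a DESeq2 p under 0.05, 20 genes were higher and 7 lower. Across the 36 the median log2 fold change was 0.23, beside 0.02 over all genes, with a range from -0.65 (EDEM3) to 1.24 (DNAJB9). Centring the libraries on the mean log2 change moved the median of all genes from 0.02 to -0.13 and that of the 36 genes to 0.08, and the split from 17 higher and 6 lower to 15 higher and 10 lower.

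**Figure D1:**
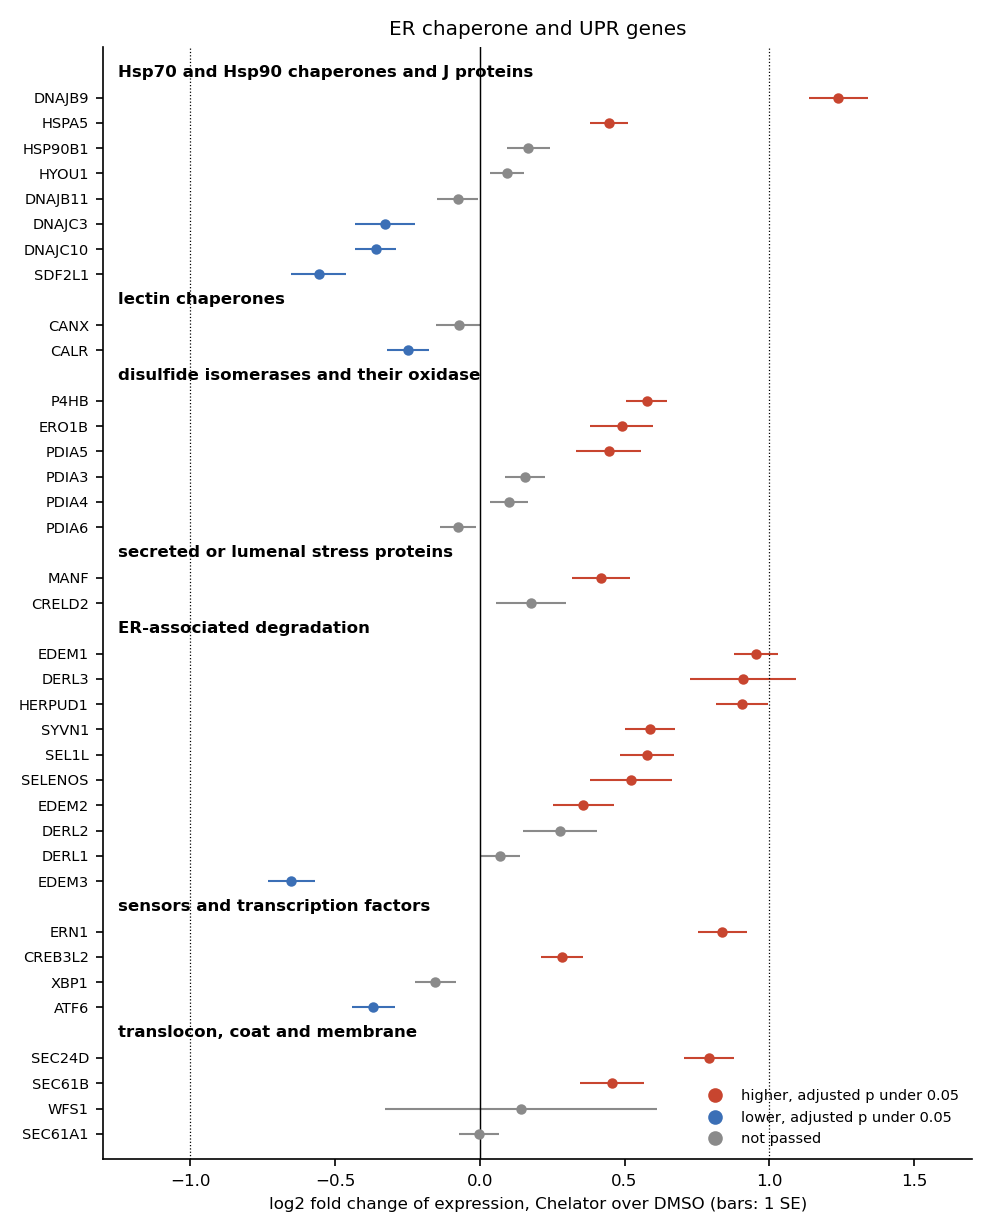
Log2 fold change of expression (Chelator over DMSO, x axis) of the 36 genes, grouped by role and ordered within each role; points are DESeq2 estimates, bars 1 standard error, colours the outcome at an adjusted p under 0.05, and dotted lines log2 fold changes of -1 and 1. DNAJB9 at 1.24 is the 1 gene past a dotted line, and 7 of the 10 ERAD genes lie to the right of 0 and past the test.

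Levels per length (TPM) spanned more than 3 orders of magnitude in these genes. CANX had the highest mean over the 6 libraries at 808.5 TPM, followed by CALR at 574.5, HSP90B1 at 397, SDF2L1 at 393 and P4HB at 359 TPM. SDF2L1 and HSP90B1 changed place between the groups, with means of 463 ± 9.98 and 369 ± 13.0 TPM (SD, n = 3) in DMSO and 323 ± 39.4 and 424 ± 6.52 TPM in Chelator. WFS1, an ER membrane protein gene, was the lowest at 0.201 ± 0.0566 TPM in DMSO and 0.229 ± 0.0487 TPM in Chelator. With 35.3 ± 12.0 and 38.7 ± 8.47 normalized counts (SD, n = 3), its log2 fold change of 0.14 ± 0.47 (SE) was within its error.

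Among the Hsp70 and Hsp90 chaperones and their J-domain partners, 2 of 8 genes were higher, 3 lower and 3 did not pass. DNAJB9 encodes the J protein ERdj4, which works with HSPA5 and is a textbook target of spliced XBP1. It had 722, 757 and 827 normalized counts (estimated counts corrected for library size and average transcript length) with DMSO and 1783, 1758 and 1891 with the chelator. The groups were far apart, and DNAJB9 rose by a log2 fold change of 1.24 ± 0.10 (SE), or 2.36-fold (DESeq2 adjusted p = 3.05e-32). HSPA5 (BiP), the Hsp70 of the ER, rose by 0.45 ± 0.07 on the log2 scale (adjusted p = 9.35e-11), from 51373 ± 1625 to 70064 ± 3075 normalized counts (SD, n = 3), without overlap between the groups.

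SDF2L1, a component of the HSPA5 and DNAJB11 chaperone complexes, went the other way. Its libraries gave 26242, 22601 and 26988 normalized counts in DMSO and 15238, 17910 and 18426 in Chelator. Each Chelator library was below each DMSO library, and SDF2L1 fell by 0.56 ± 0.09 on the log2 scale (DESeq2 adjusted p = 3.87e-08). The J proteins DNAJC10 (ERdj5, a disulfide reductase) and DNAJC3 (p58IPK) fell by 0.36 ± 0.07 (adjusted p = 2.82e-06) and 0.33 ± 0.11 (adjusted p = 0.00638). Both falls were lost with trends in GC content and length removed, where the log2 fold changes were -0.08 (adjusted p = 0.45) for DNAJC10 and -0.11 (adjusted p = 0.284) for DNAJC3. DNAJC3 overlapped between the groups, with 5982 normalized counts in 1 Chelator library and 5930.2 in 1 DMSO library, and it no longer passed without DMSO replicate 3, Chelator replicate 2 or Chelator replicate 3 (adjusted p = 0.0524, 0.0828 and 0.076). HSP90B1 (GRP94), HYOU1 (the exchange factor GRP170) and DNAJB11 (ERdj3) had log2 fold changes of 0.17 ± 0.07, 0.09 ± 0.06 and -0.08 ± 0.07 and did not pass. HSP90B1 was close to the threshold (adjusted p = 0.0577) and passed as higher under 6 of 15 other settings. HYOU1 passed as higher with TMM size factors (0.14, adjusted p = 0.027). It also passed with no length offset (0.22, adjusted p = 0.000531) and with limma-voom, which was run without that offset too (0.25, adjusted p = 0.00092). DNAJB11 passed as lower after centring on the mean log2 change (-0.22, adjusted p = 0.00653).

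The lectin chaperones calnexin and calreticulin hold glycoproteins that carry a trimmed sugar until they fold. For CALR the DMSO libraries gave 82131, 73882 and 81565 normalized counts and the Chelator libraries 69394, 63647 and 67043. The groups did not overlap, and CALR fell by 0.25 ± 0.07 on the log2 scale (DESeq2 adjusted p = 0.00201). CANX gave 106532, 104890 and 119715 normalized counts in DMSO and 108045, 98689 and 108008 in Chelator. These ranges overlapped, and its log2 fold change of -0.07 ± 0.08 did not pass (adjusted p = 0.505). The value for CANX depended on transcript length, since its average effective length came to 2008 bases with DMSO and to 1497 with the chelator. Without the length offset CANX was lower, at -0.50 with DESeq2 (adjusted p = 2.02e-09) and -0.48 with limma-voom, which was also run without it (adjusted p = 4.9e-05). It was lower too after centring on the mean log2 change (-0.22, adjusted p = 0.0137).

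Of 5 disulfide isomerases and the oxidase ERO1B, 3 genes were higher and none lower. P4HB encodes protein disulfide isomerase, which is also the beta subunit of collagen prolyl 4-hydroxylase. Its normalized counts were 53354, 51893 and 54456 in DMSO and 84941, 74627 and 78556 in Chelator. P4HB was the most abundant member that rose by at least 0.5, by 0.58 ± 0.07 on the log2 scale or 1.49-fold (DESeq2 adjusted p = 4.57e-15). PDIA5 rose by 0.45 ± 0.11 (adjusted p = 0.000316) from 1439 ± 189 to 1959 ± 82.1 normalized counts, although 14.6% of its 31-base sequences also occur in other expressed genes, SEC22A among them, whose exons overlap it on the same strand. ERO1B, which reoxidises the isomerases, rose by 0.49 ± 0.11 (adjusted p = 4.68e-05). Its rise rested on the length offset, without which the log2 fold change was 0.11 with DESeq2 (adjusted p = 0.426) and 0.14 with limma-voom (adjusted p = 0.227). PDIA3 (ERp57), PDIA4 (ERp72) and PDIA6 (P5) lay between -0.08 and 0.16 and did not pass. PDIA4 passed as higher with TMM size factors (0.15, adjusted p = 0.044) and PDIA6 as lower after centring (-0.22, adjusted p = 0.0017). PDIA3 was near the threshold (adjusted p = 0.0606), passed as higher under 6 of 15 other settings, and shared 16.2% of its 31-base sequences with other expressed genes.

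Of the secreted or lumenal stress proteins, MANF rose by 0.42 ± 0.10 on the log2 scale (DESeq2 adjusted p = 0.000145), from 1675 ± 114 to 2238 ± 184 normalized counts. CRELD2 had a log2 fold change of 0.18 ± 0.12 and did not pass (adjusted p = 0.264). Without the length offset it passed as higher, at 0.31 with limma-voom and at 0.28 with DESeq2 (adjusted p = 0.0417 and 0.0423).

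ERAD was the role with the most rises, 7 of 10 genes, with 1 that fell, and its median log2 fold change was 0.55. Between 6 and 8 of the 10 were higher and 1 lower under each of the 15 other settings. EDEM1, a mannosidase-like protein that marks misfolded glycoproteins for export, gave 2632, 2624 and 2523 normalized counts in DMSO and 5076, 5220.0 and 4774 in Chelator. It rose 1.94-fold, by 0.95 ± 0.08 on the log2 scale (DESeq2 adjusted p = 5.63e-34), just under the threshold of 1, and was called at 1.07 once GC content and length trends were removed. EDEM2 rose less, by 0.36 ± 0.11 (adjusted p = 0.00261), and did not pass after centring on the mean log2 change (0.21, adjusted p = 0.0968).

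EDEM3 was the exception among the EDEM genes. Its libraries gave 7535, 7826 and 7798 normalized counts in DMSO and 5309, 4518 and 4923 in Chelator. EDEM3 fell by 0.65 ± 0.08 on the log2 scale (DESeq2 adjusted p = 1.04e-14), the largest fall of the 36 genes, so that 2 mannosidases of the same family rose and the remaining one fell in the same libraries. In TPM, EDEM3 was above EDEM1 in DMSO (19.9 ± 2.23 against 7.44 ± 0.81 TPM, SD, n = 3) and the order was reversed in Chelator (12.9 ± 0.66 against 14.7 ± 0.90 TPM).

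HERPUD1, which scaffolds the ERAD complex, had 1946, 1903 and 1928 normalized counts in DMSO against 3262, 3810 and 3756 in Chelator. It rose by 0.91 ± 0.09 on the log2 scale (DESeq2 adjusted p = 2.03e-22). SEL1L and SYVN1 (HRD1), the adaptor and the ubiquitin ligase at its core, moved together. SEL1L went from 3921, 4561 and 4605 normalized counts to 7010.2, 6484 and 6017. SYVN1 went from 4217, 3753 and 4086 to 5542, 6165 and 6424. Neither gene had overlapping groups, and the rises were 0.58 ± 0.09 (adjusted p = 4.41e-09) and 0.59 ± 0.09 (adjusted p = 1.07e-10). Exons of FAU on the same strand and of MRPL49 on the opposite strand, both with more counts than SYVN1, lie over 2.37% and 6.48% of the SYVN1 exon bases.

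SELENOS recruits the ATPase VCP to the ER membrane. Its normalized counts were 2077, 1678 and 2203 in DMSO and 2295, 2866 and 3406 in Chelator. The lowest Chelator library was just above the highest DMSO library, and SELENOS rose by 0.52 ± 0.14 on the log2 scale (DESeq2 adjusted p = 0.000931). Its main coding transcript, SELENOS-203, stood at 26.3, 26.6 and 26.7 TPM in DMSO and at 29.4, 28.6 and 29.0 TPM in Chelator, a smaller difference than that of the gene. Of the derlins, membrane proteins of the export channel, DERL1 (0.07 ± 0.07) and DERL2 (0.28 ± 0.13) did not pass, though DERL2 passed as higher at 0.32 with TMM size factors and with edgeR (adjusted p = 0.0266 and 0.0478). DERL3, low in these cells, had 324, 312 and 264 normalized counts in DMSO and 436, 623 and 631 in Chelator, a rise of 0.91 ± 0.18 (adjusted p = 4.5e-06). Without the length offset its log2 fold change was 1.14 with DESeq2 and 1.15 with limma-voom, so that it was called under both. It was 1.07 without Chelator replicate 1, its lowest Chelator library. Exons of SMARCB1 on the opposite strand, with 6669 counts on average, cover 77.0% of the exon bases of DERL3. Whether reads were counted by strand was not given in the sources used here, so reads of the 2 genes may not have been told apart.

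**Figure D2:**
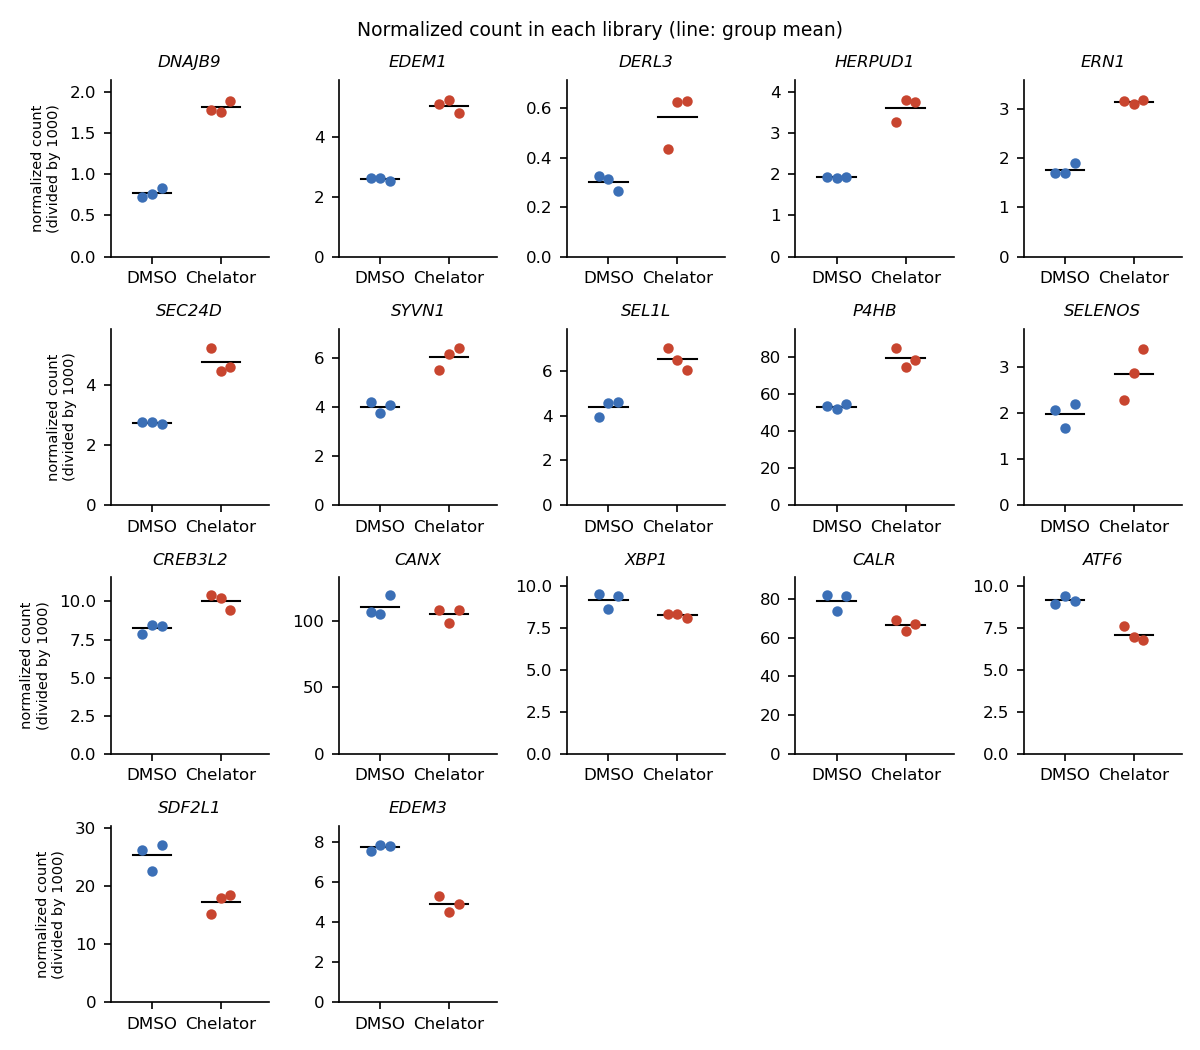
Normalized count (divided by 1000, y axes from 0) in each of the 3 DMSO (blue) and 3 Chelator (red) libraries for the 17 genes given with values in every library, ordered by log2 fold change; black lines are group means. The groups overlap in CANX alone, DNAJB9 shows the widest relative gap (722 to 827 against 1758 to 1891), and EDEM3 and SDF2L1 show the largest falls.

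The sensors and their transcription factors did not move together. ERN1 encodes IRE1, the kinase and nuclease that cuts XBP1 mRNA. ERN1 gave 1688, 1702 and 1887 normalized counts in DMSO and 3149, 3099 and 3179 in Chelator. It rose 1.79-fold, by 0.84 ± 0.08 on the log2 scale (DESeq2 adjusted p = 1.18e-21). ATF6, the sensor cleaved in the Golgi, gave 8949, 9430 and 9110 normalized counts in DMSO and 7615, 6939 and 6752 in Chelator. ATF6 fell by 0.37 ± 0.07 (adjusted p = 5.28e-06), again without overlap. CREB3L2, an ATF6-like factor that drives genes of the secretory coat, went from 7840, 8478 and 8380 to 10404, 10225 and 9432 normalized counts. Its rise of 0.28 ± 0.07 (adjusted p = 0.000502) was lost after centring on the mean log2 change (0.14, adjusted p = 0.125).

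The total of XBP1 mRNA was slightly lower and did not pass, while its transcripts shifted. Summed over transcripts, XBP1 gave 9504, 8644 and 9417 normalized counts in DMSO and 8321, 8360.3 and 8087 in Chelator, without overlap, at a log2 fold change of -0.15 ± 0.07 (DESeq2 adjusted p = 0.0702). It passed as lower under 3 of 15 other settings, with values of -0.20 to -0.30. The intron-free XBP1-202 was estimated at 1093, 1086 and 943 counts with DMSO against 3918, 3250 and 2858 with the chelator. The intron-holding XBP1-201 was at 6701, 6267 and 5719 counts and at 4326, 5982 and 4460 counts. In TPM, XBP1-202 went from 9.58 ± 1.04 to 25.9 ± 3.75 and XBP1-201 from 54.6 ± 4.17 to 36.3 ± 4.61 (SD, n = 3).

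The spliced share, the TPM of XBP1-202 out of that of all coding XBP1 transcripts, was 14.5%, 15.2% and 14.6% in DMSO. In Chelator it was 48.5%, 35.9% and 39.7%. Every Chelator library was more than 20 points above every DMSO library. The means were 14.7% ± 0.362 and 41.4% ± 6.45 (SD, n = 3), a difference of 26.6 percentage points or 2.8-fold (exact two-sided permutation test, p = 0.1, the smallest that 3 against 3 allows). The difference was 26.1 points as a share of estimated counts and 26.8 points between XBP1-201 and XBP1-202 alone. Out of all XBP1 transcripts, the 2 annotated with a retained intron included, the share was lower in both groups, 9.55% ± 0.617 and 28.3% ± 4.77, and the difference 18.8 points. Taken over all genes, XBP1 was called for transcript usage (edgeR's diffSpliceDGE with Simes' method, adjusted p = 6.21e-07). As a single transcript XBP1-202 passed (adjusted p = 5.43e-07) and XBP1-201 did not (adjusted p = 0.193).

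**Figure D3:**
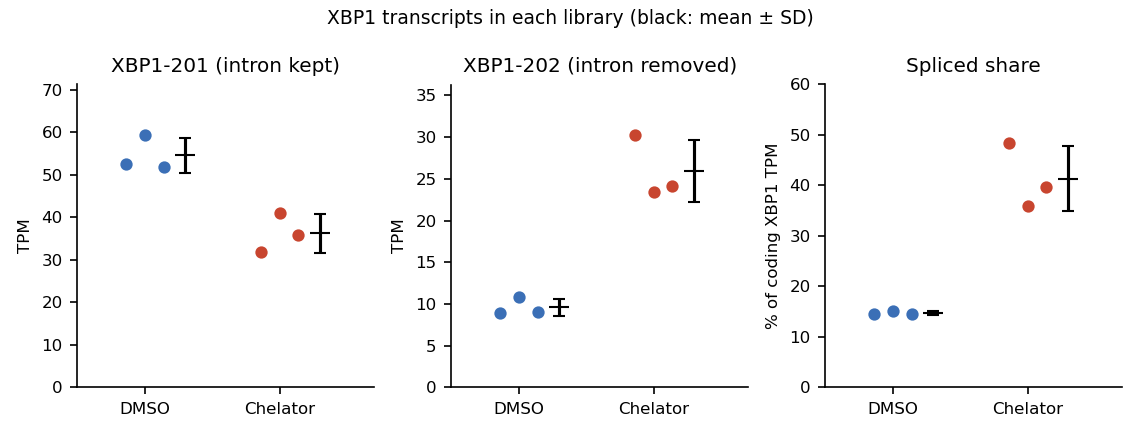
TPM of XBP1-201, which keeps the 26-base intron, TPM of XBP1-202, which lacks it, and the share of XBP1-202 in the TPM of coding XBP1 transcripts (y axes from 0), in each DMSO (blue) and Chelator (red) library; black marks are means ± SD, n = 3. The share lies between 14.5% and 15.2% in DMSO and between 35.9% and 48.5% in Chelator.

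In the last role, SEC61B and SEC24D were higher. SEC24D, a cargo adaptor of the COPII coat that buds vesicles from the ER, had 2786, 2772 and 2716 normalized counts in DMSO and 5235, 4468 and 4617 in Chelator. It rose by 0.79 ± 0.09 on the log2 scale, or 1.73-fold (DESeq2 adjusted p = 7.51e-19). Of the protein channel into the ER, the small subunit gene SEC61B rose by 0.46 ± 0.11 (adjusted p = 0.000148), whereas the pore gene SEC61A1 was at 0.00 ± 0.07 (adjusted p = 0.984), with 26564 ± 232 and 26519 ± 1643 normalized counts.

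Transcript usage, the division of a gene's RNA among its annotated transcripts, was tested for 35 of the 36 genes, and 6 were called (adjusted Simes p under 0.05 and a share of the gene's TPM that changed by more than 5 points), where the background over all genes was 9.22%. Beside XBP1 they were CANX, SELENOS, HSP90B1, HERPUD1 and PDIA3. This test is of a gene as a whole, and a transcript can hold a large part of the share change without passing by itself. In CANX, the 345-base CANX-206, annotated without a coding sequence, went from 9.67%, 4.6% and 16.2% of the gene's TPM in DMSO to 32.6%, 38.5% and 42.5% in Chelator (edgeR adjusted p = 3.46e-06 for the transcript and 2.67e-10 for the gene). The main coding transcript CANX-202 went from a share of 38.9% ± 1.21 to 28.6% ± 4.41 (SD, n = 3) and did not pass by itself (edgeR adjusted p = 1.0). In HSP90B1, the full coding transcript HSP90B1-201 went from 71.5%, 74.8% and 65.7% to 55.2%, 56.6% and 51.4%, and did not pass by itself (adjusted p = 1.0, against 1.23e-18 for the gene). The transcript that passed was HSP90B1-230 (adjusted p = 2.99e-19). HSP90B1-230, annotated as a target of nonsense-mediated decay (NMD), went from 81.5, 93.1 and 174 counts to 6402, 5505 and 8521.

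In HERPUD1 the retained-intron transcript HERPUD1-215 went from a share of 20.7% ± 4.0 to 7.35% ± 1.21 (SD, n = 3) and did not pass by itself (edgeR adjusted p = 1.0, against 0.00388 for the gene). The 458-base HERPUD1-214, which passed (adjusted p = 0.00187), had 0 counts throughout DMSO and 47.0, 133 and 107 counts in Chelator. The full coding transcript HERPUD1-201 went from 6.58, 8.32 and 8.69 to 17.8, 15.4 and 17.0 TPM. SELENOS-208, a retained-intron transcript of 355 bases, had 1.5, 0 and 8.2 counts in DMSO and 36.6, 194 and 269 in Chelator, and its share of the gene's TPM went from 1.18% ± 1.6 to 24.4% ± 15.0 (adjusted p = 0.00156 for the transcript and 0.0019 for the gene). In PDIA3 the NMD transcript PDIA3-225 went from 31.6% ± 2.7 to 24.1% ± 2.71 and did not pass by itself (adjusted p = 1.0, against 3.37e-07 for the gene). In that gene PDIA3-218 passed (adjusted p = 9.61e-08), with 0, 80.6 and 0 counts in DMSO and 1458, 1092 and 2888 in Chelator. HERPUD1-214, SELENOS-208 and PDIA3-218 met the filter of at least 10 counts in 3 libraries only with their Chelator libraries. Their own p-values are therefore weak support for a change. HERPUD1 and SELENOS were no longer called when any 1 Chelator library was left out, which left 4 members called. In those fits HERPUD1-214 and SELENOS-208 could not reach 10 counts in 3 libraries and left the test. The fits therefore cannot show whether these calls rest on single Chelator libraries. SELENOS was also not called without DMSO replicate 1. With limma's diffSplice 8 members were called and SELENOS and PDIA3 were not among them. CANX-206, SELENOS-208 and HERPUD1-214 are short, at 345, 355 and 458 bases, and the length of the fragments sequenced differed between the groups. The part of fragment length in these shares was not tested.

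**Figure D4:**
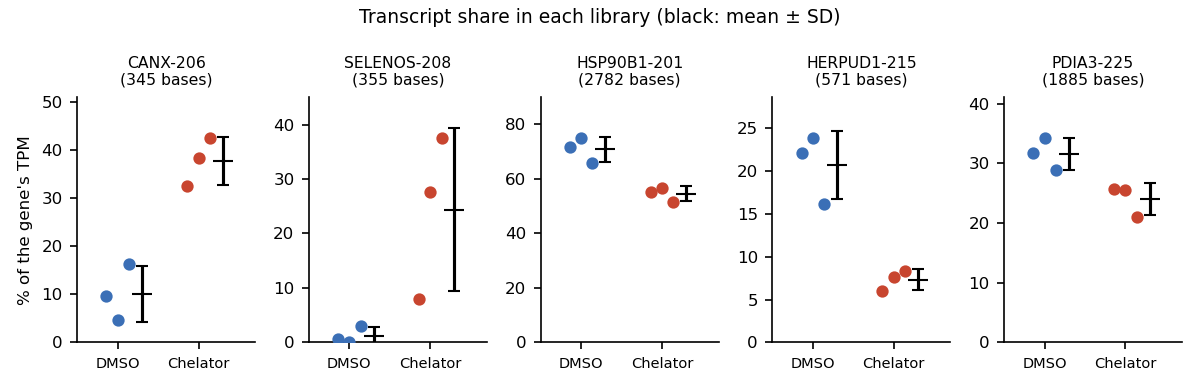
Share of the gene's TPM (%, y axes from 0) held by 1 transcript of each of the 5 genes beside XBP1 that were called for transcript usage, in each DMSO (blue) and Chelator (red) library; black marks are means ± SD, n = 3. CANX-206 and SELENOS-208, which passed as single transcripts, hold a larger share in Chelator and HSP90B1-201, HERPUD1-215 and PDIA3-225, which did not, a smaller one, with SELENOS-208 spread from 8.01% to 37.5% in Chelator.

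The other genes of the pathway were taken as 8 lists from general knowledge, 124 genes of which 122 entered the test, and 44 were higher, 32 lower and 46 did not pass. The balance turned after centring on the mean log2 change, with 32 higher and 55 lower, and was nearly even without the length offset, with 43 and 44. The eIF2alpha kinase arm and ATF4 targets had the most rises, with 14 of 16 genes higher, 9 of them called, and 1 lower; the median of the list was 1.51 on the log2 scale. ATF3 and DDIT3 (CHOP), transcription factors of this arm, rose by 2.57 ± 0.12 and 2.32 ± 0.11 (DESeq2 adjusted p = 4.06e-98 and 1.28e-96). DDIT4 (REDD1), an inhibitor of mTORC1, rose by 2.32 ± 0.07 (adjusted p = 2.14e-213), from 12477 ± 916 to 62144 ± 1764 normalized counts. CHAC1, which degrades glutathione, rose by 2.11 ± 0.12 (adjusted p = 3.83e-68). ATF4 itself rose by 1.48 and EIF2AK3, the gene of the sensor PERK, by 0.43, while EIF2S1, the gene of eIF2alpha, fell by 0.30 on the log2 scale (adjusted p = 1.3e-85, 2.73e-05 and 0.00133). These last 3 were named for their role, with their values known. Exons of MARS1 and MBD6 on the opposite strand lie over 31.6% of the DDIT3 exon bases.

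Transcripts known to be cut by IRE1 outside XBP1 were all higher, 5 of 5 genes, 3 of them called (background 19.5% higher and 8.18% called higher). The called genes include SCARA3, which had no counts in DMSO and few in Chelator and is given under other observations. COL6A1 rose by 2.24 ± 0.25 (DESeq2 adjusted p = 4.64e-18), SPARC by 1.60 ± 0.13 (adjusted p = 2.49e-31, but 1.01 without the length offset), HGSNAT by 0.62 ± 0.12 (adjusted p = 6.71e-07) and BLOC1S1, the most widely used marker of this cutting, by 0.38 ± 0.11 (adjusted p = 0.00243). Of the 31-base sequences of BLOC1S1, 28.8% also occur in other expressed genes, and a gene on the same strand lies over 29.8% of its exon bases. After centring on the mean log2 change, 4 of the 5 were higher, as BLOC1S1 no longer passed. Without the length offset the median of the list, 1.60, came to 1.01 with DESeq2 and 1.05 with limma-voom. In the list of other sensors, their proteases and the XBP1 ligase, 4 of 10 genes were higher and 1 lower. MBTPS1, the protease that cleaves ATF6, rose by 0.27 ± 0.07 (DESeq2 adjusted p = 0.000813), CREB3L4 by 0.47 ± 0.13 (adjusted p = 0.0015) and ATF6B by 0.18 ± 0.07 (adjusted p = 0.0394). CREB3L3, the other gene that rose and the only one called, had few counts and is given under other observations. TRAF2, an adaptor of IRE1, fell by 0.21 ± 0.08 (adjusted p = 0.025). The fall of TRAF2 was lost under 7 of 15 other settings, among them TMM size factors, which gave 5 higher and 0 lower, no length offset, the replicate block, and leaving out DMSO replicate 1 or Chelator replicate 2. The rise of ATF6B was lost under 8, which included centring, the replicate block and leaving out each library but Chelator replicate 1, and that of MBTPS1 under 3 (centring, limma-voom and no length offset). After centring, 2 genes of this list were higher and 3 lower. RTCB, the ligase that joins the XBP1 exons, had a log2 fold change of -0.11 and did not pass, nor did it under 14 of 15 other settings, with values from -0.25 to -0.07.

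The other lists hold ER housekeeping genes, and their counts stand beside the 19.5% higher and 18.3% lower of all genes tested, to which several were close. Of 20 other ERAD genes 5 were higher and 6 lower, with a median log2 fold change of -0.06, beside 7 and 1 of the 10 ERAD genes among the 36. The balance turned with the scaling, to 6 higher and 4 lower with TMM size factors and to 2 higher and 11 lower after centring on the mean log2 change. OS9, a lectin of the HRD1 complex, rose by 0.57 ± 0.08 (DESeq2 adjusted p = 1.02e-12). The ubiquitin ligase genes TMEM129 and RNF5 rose by 0.36 ± 0.09 and 0.34 ± 0.11 (adjusted p = 0.000269 and 0.00822, where RNF5 no longer passed after centring or without Chelator replicate 2 or 3), and the protease gene RHBDD1 fell by 0.46 ± 0.12 (adjusted p = 0.000461). Of 27 tested oxidoreductases and folding enzymes 8 were higher and 10 lower, where QSOX1 and ERP29 rose by 0.87 ± 0.07 and 0.87 ± 0.09 (adjusted p = 1.02e-31 and 1.49e-22), FKBP10 rose by 0.78 ± 0.27 (adjusted p = 0.013) and FKBP7 fell by 0.89 ± 0.22 (adjusted p = 0.000265). The rise of FKBP10 was lost with GC content and length trends removed, with the replicate block, and without DMSO replicate 3 or Chelator replicate 2. This list stood at 8 and 7 with edgeR and at 7 and 14 after centring.

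In the glycan and lectin cycle, 2 of 10 genes were higher and 4 lower. These counts were 1 and 7 after centring, 1 and 5 with limma-voom or no length offset, and 2 and 6 with GC content and length trends removed. UGGT1, the sensor enzyme that puts back the glucose read by CANX and CALR, fell by 0.76 ± 0.12 (DESeq2 adjusted p = 8.49e-10), whereas its paralog UGGT2 rose by 0.43 ± 0.11 (adjusted p = 0.000509). The lectin gene MLEC and the glucosidase gene MOGS fell by 0.68 ± 0.10 and 0.50 ± 0.08 (adjusted p = 4.72e-11 and 6.42e-09).

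Of 23 genes of the translocon, signal peptidase and oligosaccharyltransferase, 5 were higher and 7 lower. These counts were 3 and 12 after centring on the mean log2 change, 6 and 6 with edgeR, and 7 and 6 without DMSO replicate 1. SPCS2, a signal peptidase subunit, rose by 1.03 ± 0.23 (DESeq2 adjusted p = 6.28e-05), with 6877, 6132 and 6632 normalized counts in DMSO and 9585, 13480 and 16915 in Chelator. Its Chelator libraries were widely spread but all above DMSO. SEC63, a J protein of the translocon, rose by 0.86 ± 0.07 (adjusted p = 4.05e-30) and DDOST by 0.41 ± 0.08 (adjusted p = 1.34e-06). All 3 rises rested on the length offset, and 14.5% of the 31-base sequences of DDOST also occur in other expressed genes. Average effective length went from 1393 to 732 bases in SPCS2 and from 3945 to 2374 bases in SEC63, and without the offset the log2 fold changes of SPCS2, SEC63 and DDOST were 0.01, 0.12 and 0.10 (adjusted p = 0.961, 0.215 and 0.207). In the same list the catalytic subunit gene STT3B fell by 0.45 ± 0.07 (adjusted p = 8.17e-10). Of 11 other COPII coat genes 1 was higher and 3 lower, against 0 and 7 after centring and 0 and 6 without the length offset. SAR1A, SEC31A and PREB fell by 0.48 ± 0.10, 0.28 ± 0.08 and 0.25 ± 0.07 (adjusted p = 6.29e-06, 0.0028 and 0.000584), and SEC16A rose by 0.20 ± 0.08 (adjusted p = 0.0396), a rise lost under 9 of 15 other settings, namely centring, limma-voom, no length offset, the replicate block and leaving out any library but DMSO replicate 2. The fall of SEC31A did not pass with limma-voom (adjusted p = 0.0539).

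**Figure D5:**
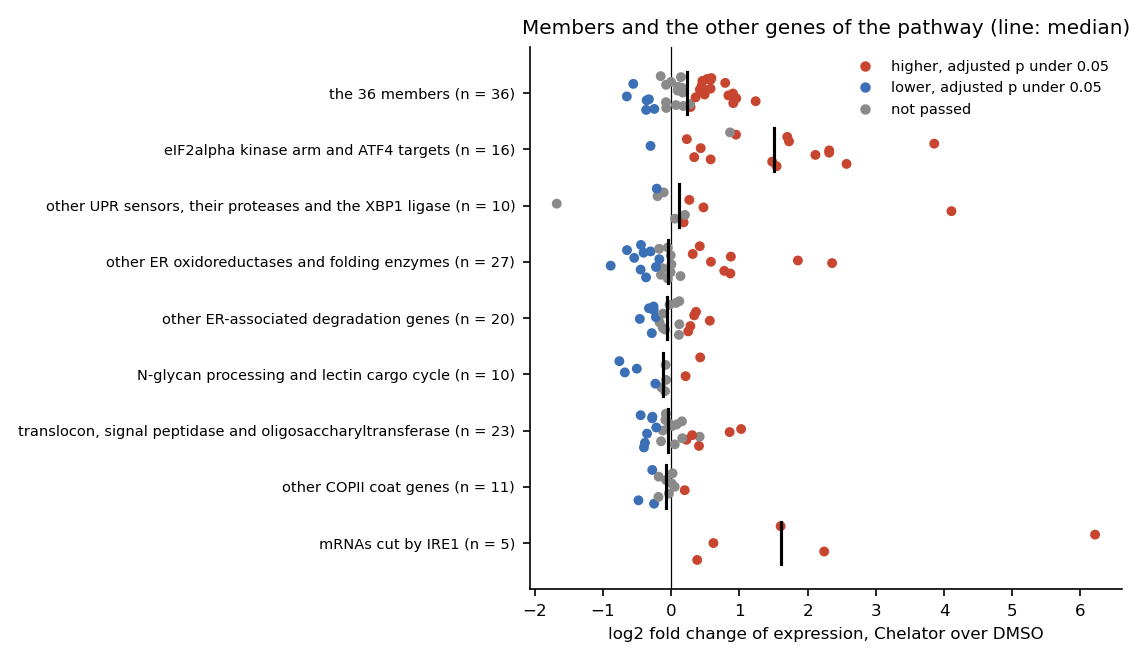
Log2 fold change of expression (Chelator over DMSO, x axis) of the 36 genes and of the tested genes of the 8 other lists of the pathway; each point is a gene, coloured by its outcome at an adjusted p under 0.05, and black lines are medians. The medians of the eIF2alpha and ATF4 list (1.51) and of the IRE1-cut mRNAs (1.60) lie above that of the 36 genes (0.23), and those of the other lists between -0.12 and 0.12.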

How the data were processed

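The authors quantified paired-end reads of 6 polyadenylated RNA libraries with Salmon 1.10.2 and deposited, for each of 252045 transcripts, an estimated count, TPM and effective length. The submitters' processing notes name the build hg38. The transcript annotation, any bias correction and the library type (strand) were not given in the sources used here. The deposited TPM values are estimated counts per effective length, scaled to a common sum. Of the transcripts, 251142 matched GENCODE 44 (GRCh38) by version and length, 470 by identifier only and 433 not at all (0.139% to 0.15% of counts, left out). Estimated counts were summed per gene and rounded. As in the authors' methods, DESeq2's Wald test (version 1.42.0 here) compared Chelator with DMSO. Their read count threshold was taken as a total count above 10 over the 6 libraries (26074 genes). Average transcript length was added as an offset, which those methods do not state. Calls required an adjusted p under 0.05 together with a log2 fold change of more than 1 in size. Transcript usage was tested with edgeR 4.0.16 (diffSpliceDGE) over 11938 genes with at least 2 transcripts of at least 10 counts in 3 libraries, with limma 3.58.1 (diffSplice) as an alternative.

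The 36 genes, the 8 lists and the rules below were chosen with earlier results of these data known. Values in every library are given for members past the test with a log2 fold change of at least 0.5, the sensors and transcription factors, and the 2 members with the highest mean TPM. Each list gives up to 4 genes with the largest change among those past the test with at least 100 normalized counts. Among members called for usage, the 5 with the largest share change were taken, and PDIA3 was added after its values were seen, as was RTCB. Other members are given by log2 fold change, some with group means. Replicate numbers are shared by the groups, but the authors' sequencing methods name no pairing, so the samples were not taken as pairs. Samples of the same number deviated together with correlations of -0.0747, 0.13 and 0.101, beside -0.162 to 0.0821 for different numbers. Alternatives were TMM size factors, centring on the mean log2 change, 2 filters, edgeR's quasi-likelihood test, limma-voom, no length offset, removal of GC content and length trends, the replicate number as a block, and leaving out each library. The limma-voom fit used no length offset either, so it and the DESeq2 fit without the offset share that change.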

Additional observations from a re-analysis of the deposited data

How the results depend on the processing

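Of the log2 fold changes of the 36 genes under 15 other settings, 488 kept their direction and their side of the threshold, 28 passed newly, 9 no longer passed and 15 reversed. None of the genes that passed the test in the report reversed. Centring on the mean log2 change gave 10 lower members (6 in the report) and 32 higher and 55 lower genes over the 8 lists (44 and 32 in the report), and reversed HYOU1 (-0.05), PDIA4 (-0.043), DERL1 (-0.075) and WFS1 (-0.001). Without the length offset DERL1 was at -0.042 and SEC61A1 at 0.001. With limma-voom DNAJB11 was at 0.025, DERL1 at -0.014 and SEC61A1 at 0.028, and SEC61A1 was at 0.042 with TMM and with edgeR. With GC content and length trends removed WFS1 was at -0.003. Leaving out each library in turn gave 17 to 18 higher members, 5 to 7 lower, 1 to 2 called higher, 4 to 7 called for transcript usage, and an XBP1 spliced share 23.1 to 29.3 points higher in Chelator. It gave SEC61A1 values from -0.039 to 0.046, above 0 without Chelator replicate 2, and WFS1 values from -0.035 to 0.433, below 0 without DMSO replicate 2 or Chelator replicate 3. Called higher were 2 members with limma-voom, without the length offset and without Chelator replicate 1 (DNAJB9 and DERL3), and 2 with GC content and length trends removed (DNAJB9 and EDEM1). With the replicate number as a block, 17 members were higher, 6 lower, 1 called higher and 6 called for transcript usage, and no member changed sides of the threshold. Other settings gave 15 to 22 higher members and 5 to 10 lower. The cause of each change was not tested. With 3 libraries per group, the exact permutation test of the XBP1 spliced share could not give a p under 0.1, and genes at low counts such as WFS1 (log2 SE 0.47) allow no statement on small changes.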

Other observations

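Some genes of the 8 lists passed the test at low counts and fall outside the rule for named genes, so they were chosen after their values were seen. NUPR1, a stress-responsive chromatin factor downstream of ATF4, had 20, 25 and 21 counts in DMSO and 68, 93 and 109 in Chelator, at a log2 fold change of 3.86 (DESeq2 adjusted p = 2.25e-28) with the length offset and 1.81 without it. CREB3L3, a liver and gut relative of ATF6, had 1, 2 and 0 counts in DMSO and 16, 23 and 19 in Chelator. SCARA3, counted among the mRNAs cut by IRE1, had 14, 12 and 21 counts in Chelator and 0 in all DMSO libraries. The lumenal peroxidase gene GPX8 had 19, 14 and 16 counts in DMSO and 52, 72 and 50 in Chelator, and the isomerase gene PDIA2 had 18, 3 and 11 counts and 26, 53 and 63 counts. PDIA2 no longer passed without DMSO replicate 2 or 3 or Chelator replicate 2 or 3. In each of the 5 genes, every Chelator library was above every DMSO library. The genes were picked after passing the test, so this separation was favored by the choice and adds no separate support. SCARA3 and CREB3L3 met the total-count filter only through their Chelator libraries.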
